A study of Mus musculus with 6 samples.

Results

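The genes of the cytosolic ribosomal proteins were examined in H3K27ac ChIP-seq of B16 cells, at 83 of 21938 protein-coding genes of the mouse annotation. Membership was set by symbol alone (Rpl or Rps followed by a number, the stalk genes Rplp0, Rplp1 and Rplp2, and Rpsa), with no measured value, and comprised 32 genes of the small subunit and 51 of the large subunit. The family itself was picked with earlier results of these data known. The symbol rule misses cytosolic ribosomal protein genes with other names, such as Fau, Rack1 and Rpl36al, which are given on their own further on, and takes in 6 paralogs (Rpl3l, Rpl7l1, Rpl10l, Rpl22l1, Rpl39l and Rps27l).

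B16 F10, a single mouse melanoma line, had been seeded at 100 cells per cm2 and harvested on day 5 of the progressive pigmentation model. Low pigmented (LP) and high pigmented (HP) cells were separated by side scatter, an optical readout that rises with melanin granules, and each population was fixed for 10 minutes in formaldehyde (1% per the labels) and profiled in 2 replicates. No genotype or treatment separated LP from HP, and the authors called peaks against IgG libraries made from unsorted cells. The sources used here do not say that replicates came from separate cultures, so p-values measure the spread between these libraries, which may be technical.

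H3K27ac is an acetyl mark on the nucleosomes that flank active promoters and enhancers. Ribosomal protein genes are housekeeping genes whose products are needed in matched amounts, and growing cells transcribe them at high rates. Their messenger RNAs typically begin with a run of C and T letters, the terminal oligopyrimidine (TOP) tract, through which mTORC1 and the RNA-binding protein Larp1 control their translation. Many also carry small nucleolar RNAs (snoRNAs), guides for the modification of ribosomal RNA, within their introns.

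For each gene the peaks that touched a window of 3 kb on either side of any of its transcription start sites (TSSs) were taken from the list of each library. The scaled pileup is the highest number of fragments over a summit among these peaks, per 1000000 fragments of the library. The covered length is the number of bp of the window that lay inside peaks. The libraries held 11467942 and 15353176 fragments in LP against 11483830 and 14254904 in HP. HP replicate 2 stood apart from the other 3: the median fold enrichment at the summits of ribosomal protein genes, as the authors' peak caller gave it, was 64.4 there and 17.3, 24.3 and 23.6 in LP replicate 1, LP replicate 2 and HP replicate 1. Of 10 melanocyte markers, 8 had a promoter peak in all 4 libraries, beside 47.4% of all protein-coding genes. Of 12 markers of other cell types 1 did (Pecam1, whose window holds the TSS of Milr1). Per library, 8 and 10 of the melanocyte markers had a peak in LP and 9 and 9 in HP. Of the other markers, 2 and 2 had one in LP and 3 and 4 in HP. In a bulk sample, a lower share of cells with the mark and a lower level of the mark per cell cannot be told apart.

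The promoter sequences of 63 of the 83 genes were matched in RefSeq (GRCm38.p6). The following 8 belong to the genes with the highest and the lowest mean scaled pileup that had a matched sequence. They are shown because these genes lie near the ends of the range of the mark described next. Rpl32, the gene with the highest mean, had no matched sequence. Each runs 5′ to 3′ from 80 bases before the RefSeq start to 30 bases after it on the coding strand, and capitals mark runs of at least 8 letters made only of C and T. The 4 highest come first.
Rps6, chr4:86857338-86857447, minus strand: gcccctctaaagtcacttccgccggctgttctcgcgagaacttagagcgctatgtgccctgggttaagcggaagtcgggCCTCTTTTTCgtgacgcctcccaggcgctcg
Rps3a1, chr3:86142639-86142748, minus strand: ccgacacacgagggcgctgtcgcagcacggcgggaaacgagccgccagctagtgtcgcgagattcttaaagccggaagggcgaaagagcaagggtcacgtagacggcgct
Rps15a, chr7:118116118-118116227, minus strand: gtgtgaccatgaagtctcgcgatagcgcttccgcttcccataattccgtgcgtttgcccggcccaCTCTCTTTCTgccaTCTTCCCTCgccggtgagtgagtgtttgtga
Rps19, chr7:24884512-24884621, plus strand: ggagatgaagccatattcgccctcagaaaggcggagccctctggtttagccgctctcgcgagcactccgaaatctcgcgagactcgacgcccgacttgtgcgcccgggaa
Rpl39, chrX:37085193-37085302, minus strand: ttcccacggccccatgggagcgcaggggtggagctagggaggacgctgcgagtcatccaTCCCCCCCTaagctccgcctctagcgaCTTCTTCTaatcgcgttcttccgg
Rpl10, chrX:74270736-74270845, plus strand: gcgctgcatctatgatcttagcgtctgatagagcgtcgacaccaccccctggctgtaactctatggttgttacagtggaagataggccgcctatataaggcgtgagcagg
Rps28, chr17:33824533-33824642, minus strand: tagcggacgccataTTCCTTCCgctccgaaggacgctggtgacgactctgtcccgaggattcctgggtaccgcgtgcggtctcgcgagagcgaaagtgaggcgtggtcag
Rps9, chr7:3703961-3704070, plus strand: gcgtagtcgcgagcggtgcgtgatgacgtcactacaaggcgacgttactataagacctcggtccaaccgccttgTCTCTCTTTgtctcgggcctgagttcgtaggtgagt

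The RefSeq start lay 0 to 48 bp from the reference TSS of GENCODE in 6 of these genes, 180 bp from it in Rpl39 and 221 bp from it in Rps19. In Rps6, which encodes the ribosomal substrate of S6 kinase, a run of 10 pyrimidines touched the RefSeq start. In Rps15a and Rps9 the run at the start had 9 letters each. In Rps3a1, Rps19, Rpl39, Rpl10 and Rps28 no run of at least 8 touched the RefSeq start, so the sequences of high and of low genes were not separated by it.

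Over all matched promoters, a C and T run of at least 8 letters touched the start in 14 of 63 ribosomal protein genes (22.2%) and in 3.53% of 16522 protein-coding promoters. Because annotated starts can miss the first transcribed base, the longest run within 50 bases of the start was also taken, a choice made after the data were seen. A run of at least 8 was present there in 52 of 63 ribosomal protein genes (82.5%) and in 34.6% of all promoters. The 4 genes with the longest runs at the start, also chosen after their values were seen, show the tract at its clearest.
Rpl7a, chr2:26910727-26910836, plus strand: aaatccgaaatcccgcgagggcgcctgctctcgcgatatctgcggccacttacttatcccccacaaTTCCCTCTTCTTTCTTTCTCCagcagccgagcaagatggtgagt
Rpl27a, chr7:109519115-109519224, plus strand: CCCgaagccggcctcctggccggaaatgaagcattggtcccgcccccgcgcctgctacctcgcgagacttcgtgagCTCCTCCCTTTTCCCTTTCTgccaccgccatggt
Rpl35, chr2:39005102-39005211, minus strand: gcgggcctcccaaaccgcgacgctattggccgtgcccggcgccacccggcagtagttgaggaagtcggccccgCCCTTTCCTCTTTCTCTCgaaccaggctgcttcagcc
Rpl15, chr14:18270957-18271066, minus strand: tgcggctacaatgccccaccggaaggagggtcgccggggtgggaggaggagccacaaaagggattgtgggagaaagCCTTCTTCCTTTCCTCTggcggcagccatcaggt

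The capitals at the 5′ edge of Rpl27a are the end of a run of at least 8 that begins before the stretch shown. The runs at the start were 21, 20, 18 and 17 letters long in Rpl7a, Rpl27a, Rpl35 and Rpl15. The RefSeq start lay 43, 48, 493 and 81 bp from the reference TSS in these genes, so in Rpl35 it marks another start than the one used for distances. The mean scaled pileups of the same 4 genes were 7.73, 8.94, 6.16 and 5.54, near the middle of the range of the ribosomal protein genes.

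Fixed letter patterns were searched on both strands from 250 bases before the start to 50 after it. The ETS core CCGGAAG was in 24 of 63 ribosomal protein promoters (38.1%), in 12.4% of all promoters and in 20.9% of the promoters with a peak in all 4 libraries. The YY1 pattern AAGATGG was in 14.3% against 6.40% of all promoters, the NRF1 core TGCGCA in 20.6% against 10.2%, and the GC box GGGCGG in 60.3% against 48.5%. The TATA box letters TATAAA were in 9.52% against 12.9%. When only genes with a peak in all 4 libraries were taken on both sides, the ETS letters were in 40.4% of the ribosomal protein promoters against 20.9% and the YY1 letters in 14.0% against 7.75%. The NRF1 shares came closer, 19.3% against 15.8%. The order turned for the GC box, with 59.6% against 69.1%, and for the TATA box, with 8.77% against 5.80%. The pigment cell regulator MITF binds TCACGTG and TCATGTG, which were in 9.52% of the ribosomal protein promoters and 7.33% of all promoters. The Myc E-box CACGTG, which lies inside the first of these, was in 7.94% and 8.06%. The observed over expected ratio of CpG dinucleotides had a median of 0.87 in the ribosomal protein promoters and 0.60 in all promoters. With a peak in all 4 libraries required on both sides, these medians came closer, 0.91 against 0.81. Among ribosomal protein genes with a peak in all 4 libraries, the 23 with the ETS letters had a median mean scaled pileup of 7.12 and the 34 without them 6.34. The median log2 ratios of HP to LP in the same 2 groups were 0.77 and 0.80. The level was also higher with than without the GC box (7.13 and 6.11) and the TATA box (7.14 in 5 genes and 6.88). It was lower with than without the NRF1 core (6.34 and 7.08) and the YY1 letters (6.30 and 6.95). These differences were not tested.

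A promoter peak was called for nearly every ribosomal protein gene in both populations. It was present for 79 of 83 genes in each LP library and in HP replicate 1 (95.2%), and for 80 (96.4%) in HP replicate 2. Of all protein-coding genes, 53.5% and 61.6% had a peak in the LP libraries and 57.9% and 59.9% in the HP libraries. In all 4 libraries a peak was called for 77 ribosomal protein genes (92.8%), beside 47.4% of all genes.

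The 6 genes without a peak in every library were 4 paralogs and 2 genes on the X chromosome. Rpl3l, the paralog of striated muscle, had none in any library. Rpl10l, a testis paralog, had a peak of 10 fragments only in HP replicate 1. Rpl39l, another paralog with testis expression, had a peak of 5 fragments only in LP replicate 1. The summits of these small peaks lay upstream, at −2657 and −1341 bp from the reference TSS. Rpl7l1 was called in the 3 libraries other than LP replicate 1, with scaled pileups of 1.37 in LP replicate 2, 1.65 in HP replicate 1 and 2.17 in HP replicate 2. The remaining paralogs, Rpl22l1 and the p53 target Rps27l, were called in all 4.

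On the X chromosome lie Rps4x, Rpl36a, Rpl10 and Rpl39. Rps4x, a small subunit protein, was called in the 3 libraries other than HP replicate 1, with 18 and 23 fragments in LP and 44 in HP replicate 2. Rpl36a was called only in HP replicate 2, with 18 fragments. Rpl10 and Rpl39 were called in all 4 libraries and had the 2 lowest mean scaled pileups of the 77. Their median was 0.92, 0.88, 1.09 and 2.63 in LP replicates 1 and 2 and HP replicates 1 and 2, whereas the 75 autosomal genes had medians of 4.88, 4.95, 5.92 and 12.1. Other genes on the X were also lower than other autosomal genes, with medians of 1.66, 1.63, 2.18 and 4.14 against 3.23, 3.26, 4.88 and 8.24. This split by chromosome was made after the values were seen.

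The level of the mark was above the median of all genes tested at most of the 77 genes in each library. In LP the median scaled pileup stood at 4.80 and 4.95, against 5.75 and 12.0 for HP, beside 3.23, 3.19, 4.88 and 8.14 at other genes called in all 4 libraries. The median ribosomal protein gene stood at the percentile 67.8, 76.9, 59.7 and 74.4 of the genes tested. Among the 10% of genes with the highest level were 8, 17, 6 and 13 of the 77 (10.4%, 22.1%, 7.79% and 16.9%). With ties, 10.1% of all genes tested fell there in each library. The share of the 77 exceeded this most in the replicate 2 libraries, and in HP replicate 1 it was lower. Below the median of all genes were 15, 11, 26 and 11.

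**Figure D1:**
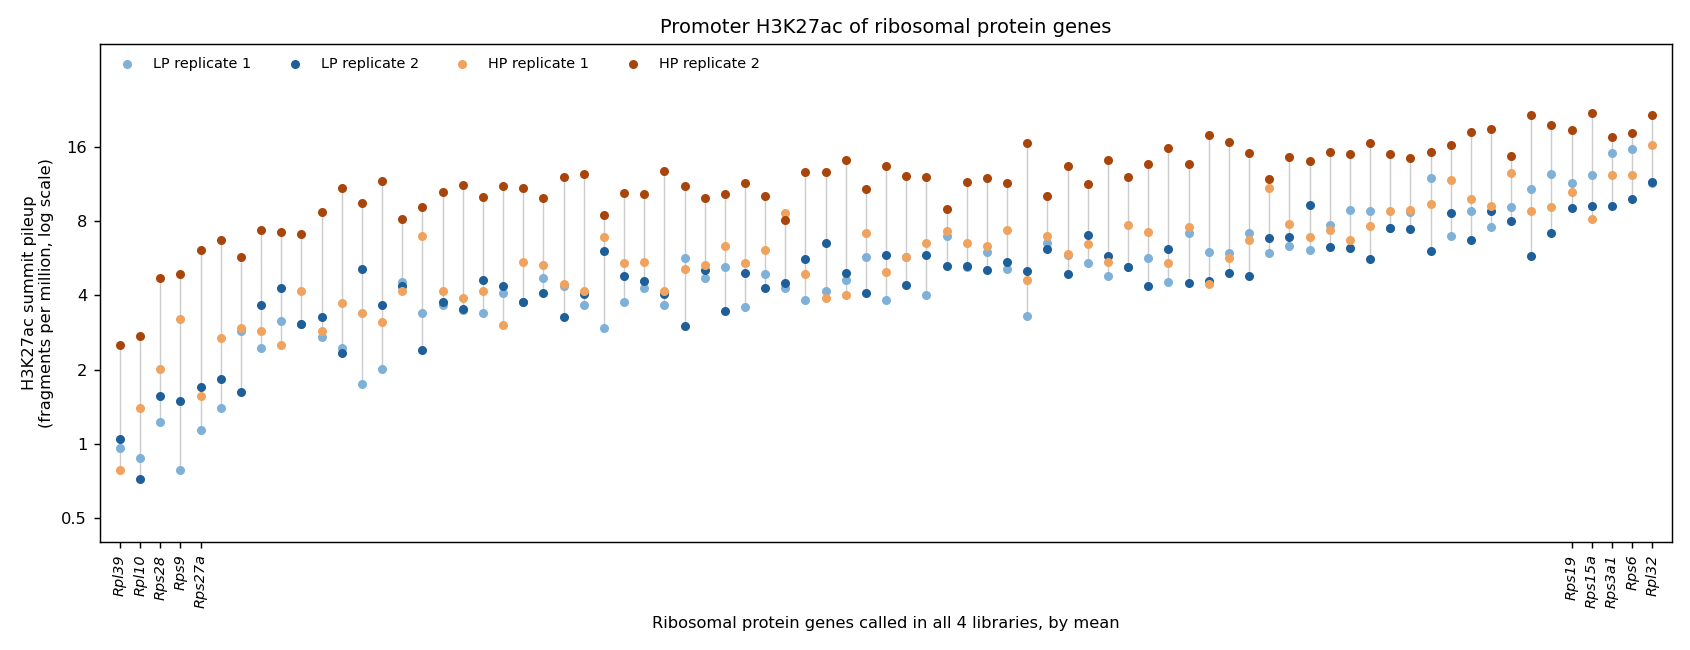
Scaled H3K27ac summit pileup in fragments per 1000000, on a log axis, at the 77 ribosomal protein genes called in all 4 libraries, ordered by their mean, with the 5 lowest and the 5 highest named. Each point is 1 library and each grey line spans the 4 values of a gene. HP replicate 2 is the highest library at nearly all genes, the other 3 libraries overlap at many, and mean values run from 1.33 at Rpl39 to 15.2 at Rpl32.

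Rpl32, a large subunit protein, had the highest mean. Its scaled pileups were 11.4 and 11.5 in LP against 16.4 and 21.7 in HP, so both HP libraries lay above both LP libraries. Rps6 followed with 15.7 and 9.84 in LP against 12.4 and 18.3 in HP. Rps3a1, a small subunit protein, had 15.2 and 9.25 in LP against 12.4 and 17.6 in HP. In these last 2 genes HP replicate 1 lay between the LP libraries. Rps15a had 12.4 and 9.25 in LP against 8.19 and 22.1 in HP, the lowest and the highest value both in HP. Rps19, the small subunit gene most often mutated in Diamond-Blackfan anaemia, had 11.4 and 9.05 in LP against 10.5 and 18.9 in HP.

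At the other end, Rpl39, which lines the peptide exit tunnel, had 0.96 and 1.04 in LP against 0.78 and 2.53 in HP. Rps28 had 1.22 and 1.56 in LP against 2.00 and 4.70 in HP. Rps27a, which is translated as a fusion with ubiquitin, had 1.13 and 1.69 in LP against 1.57 and 6.10 in HP. The low genes rest on few fragments, as at Rps9, where the highest summit in LP replicate 1 held 9 fragments.

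The first comparison asked whether these promoters differed in H3K27ac between HP and LP cells. The scaled pileup was higher in HP at all 77 genes when both replicates were averaged, with a median log2 ratio of HP to LP of 0.78 and an interquartile range of 0.62 to 0.90. Other genes were higher too, with a median of 0.90. With limma and Benjamini-Hochberg adjustment over 10391 genes, 0 of the 77 passed a threshold of 0.05 as higher and 0 as lower, beside 80 (0.77%) and 1 (0.00962%) of all genes. With a replicate block 27 of all genes were called higher, and again 0 of the 77. Without adjustment 9 of the 77 had a p under 0.05 and were higher, or 11.7%, where the share over all genes was 30.9%. The standard error of every log2 ratio was 0.55, because limma used a single spread for all genes. The smallest adjusted p among the 77 was 0.0625 (Rps9) and the largest 0.71.

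Both HP libraries lay above both LP libraries at 43 of the 77 genes (55.8%), beside 73.8% of all genes tested. After each library was centred on the median of its genes, the median log2 ratio was −0.20 over the 77 genes and −0.08 over all genes, and 66 of the 77 (85.7%) lay below 0, beside 58.4% of all genes. Under quantile normalization 55 of the 77 (71.4%) lay below 0, beside 50.5% of all genes. Both scalings bring the libraries to a common level, so these shares give the place of a gene among the others.

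The 2 replicates differed in size. In replicate 1 the median log2 ratio was 0.19 over the ribosomal protein genes and 0.52 over other genes. In replicate 2 the medians were 1.28 and 1.30. In replicate 1 HP was below LP at 21 of the 77 genes (27.3%), where the share over all genes was 19.4%. In replicate 2 it was below LP at 0 of the 77, where the share was 1%. Between the HP libraries the median log2 ratio of replicate 2 to replicate 1 was 1.03 at the ribosomal protein genes and 0.70 at other genes, and between the LP libraries it was 0.01 and −0.12. At the ribosomal protein genes the median difference between the HP replicates was thus larger than the median difference between HP and LP over both replicates (0.78), and at other genes it was smaller than theirs (0.90). Without HP replicate 2 the median over the 77 genes fell to 0.18, with 0 called. Without HP replicate 1 it was 1.28, with 47 of the 77 called higher where the share over all genes was 54.8%.

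**Figure D2:**
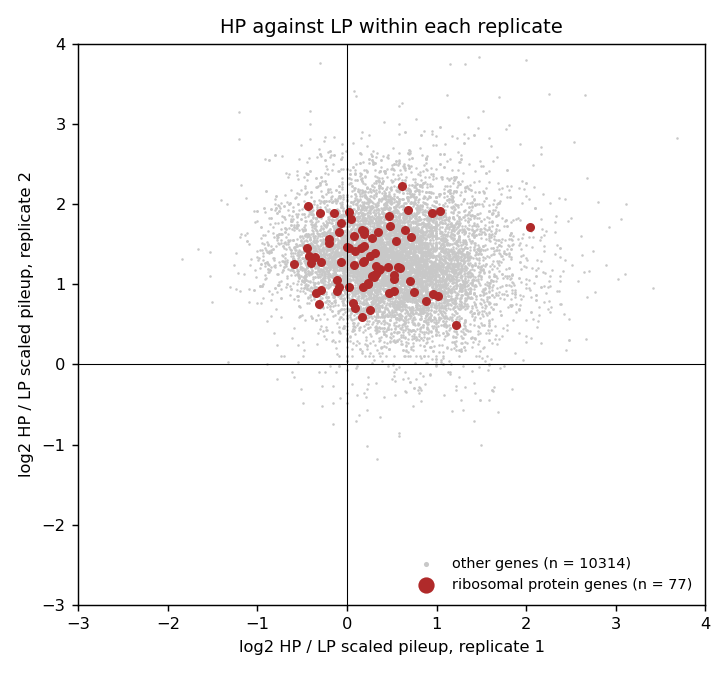
The log2 ratio of HP to LP scaled pileup in replicate 1 (x axis) and replicate 2 (y axis), with 1 point per gene called in all 4 libraries. The 77 ribosomal protein genes (red) lie above 0 in replicate 2 and on both sides of 0 in replicate 1, where 21 are negative; 8 other genes fall outside the plotted range.

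Averaged over both replicates, the ratio was smaller at ribosomal protein genes of higher level. When all genes tested were split into 5 equal groups by mean scaled pileup, a split made after the data were seen, 5, 3, 12, 33 and 24 ribosomal protein genes fell in the groups from the lowest to the highest. Their median log2 ratios were 1.16, 0.93, 0.83, 0.79 and 0.68 in this order, and those of other genes were 0.96, 1.04, 0.99, 0.89 and 0.70. In the highest group the median log2 ratio in replicate 1 was −0.07 for the 24 ribosomal protein genes and 0.10 for other genes, and 13 of the 24 lay below 0 (54.2%), beside 42.6% of the other genes. In the middle group the same medians were 0.24 and 0.63. In replicate 2 the medians of other genes did not fall with level and stood at 1.19, 1.34, 1.34, 1.32 and 1.30 from the lowest to the highest group. Those of the ribosomal protein genes were 1.71, 1.82, 1.39, 1.23 and 1.18.

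The largest ratio was at Rps9, a small subunit protein involved in decoding accuracy. Its summits held 9 and 23 fragments in LP against 37 and 70 in HP, or scaled pileups of 0.78 and 1.50 against 3.22 and 4.91. The groups did not overlap, and the log2 ratio was 1.88 (SE 0.55, limma adjusted p = 0.0625, or 0.095 with a replicate block). Among the 52 genes whose window held no other protein-coding TSS, where fewer genes were tested in all, the limma adjusted p of Rps9 was 0.0439, and 1.59% of all such genes were called higher. Without HP replicate 1 it was 0.00122, a setting in which 54.8% of all genes passed.

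The next ratios belonged to large and small subunit genes alike. Rpl7, of the large subunit, had 3.40 and 2.41 in LP against 6.97 and 9.12 in HP, a log2 ratio of 1.48. Rpl4, which reaches into the exit tunnel, had 2.44 and 2.34 in LP against 3.74 and 10.9 in HP, a log2 ratio of 1.42. In both genes HP lay above LP without overlap, and neither passed the limma adjusted threshold (adjusted p = 0.106 and 0.113). At Rpl7 the highest summit lay upstream, between −564 and −415 bp from the reference TSS, in a window shared with Rdh10. At Rpl4 it lay between −659 and −638 bp, in a window shared with Snapc5 and Zwilch. These peaks can belong to the neighbouring genes, which was not tested. Rpl10 on the X, which contacts transfer RNA near the catalytic centre, had 0.87 and 0.72 in LP against 1.39 and 2.74 in HP. Rps3, at the entry of the messenger RNA channel, had 2.01 and 3.65 in LP against 3.13 and 11.7 in HP, and its groups overlapped. Their log2 ratios were 1.30 and 1.16. The log2 ratios of Rps27a, Rps28 and Rpl23a, the last at the tunnel exit where nascent chains meet the signal recognition particle, were 1.16, 1.15 and 1.10.

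The smallest ratio was at Rps21, a small subunit protein, with 3.14 and 4.30 in LP against 2.53 and 7.23 in HP and a log2 ratio of 0.22. Rps6, Rps3a1 and Rps15a, all among the 5 highest in level, followed with 0.28, 0.32 and 0.33. Rpl34 had 6.10 and 9.31 in LP against 6.88 and 14.0 in HP, a log2 ratio of 0.38. Rps15, which lies near the decoding site, had 4.53 and 4.36 in LP against 4.18 and 8.21 in HP, a log2 ratio of 0.40. In each of these 6 genes the HP values overlapped the LP values.

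In replicate 1 the lowest log2 ratios of HP to LP were at Rps15a and at Rpl19, a large subunit gene. They were −0.60 and −0.45, and in replicate 2 they were 1.26 and 1.46. Rpl21, Rplp1 and Rpl17 were also below 0 in replicate 1, at −0.44, −0.43 and −0.36. All 3 were above 0 in replicate 2, at 1.97, 1.35 and 1.34.

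The stalk proteins recruit the translation factors that hydrolyse GTP. Rplp0, the base of the stalk, had scaled pileups of 6.98 and 5.28 in LP against 7.31 and 8.98 in HP. Rplp1 had 4.10 and 4.36 in LP against 3.05 and 11.2 in HP, and Rplp2 had 4.62 and 4.95 in LP against 4.01 and 14.2 in HP. For the pair Rplp1 and Rplp2, which sits on Rplp0 as a dimer, the lowest and the highest library were both HP. Rpsa, a small subunit protein also known as the laminin receptor, had 5.23 and 5.28 in LP against 6.53 and 11.6 in HP, without overlap. The log2 ratios of the 4 genes were 0.42, 0.46, 0.66 and 0.73. The paralogs Rpl22l1 and Rps27l had log2 ratios of 0.78 and 0.89, within the range of the other genes. The medians of the small and the large subunit were 0.73 (31 genes) and 0.78 (46 genes), and 5 and 4 genes of them were higher with an unadjusted p under 0.05, where the share over all genes was 30.9%.

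Within 30 of the 83 genes lay an annotated snoRNA (36.1%), beside 1.27% of all protein-coding genes. The largest number was 5, in Rpl4. All 30 hosts had a peak in the 4 libraries. Their median scaled pileups were 5.19 and 4.98 in LP against 6.40 and 12.1 in HP, and those of the 47 other ribosomal protein genes were 4.53, 4.82, 5.49 and 11.9. The median log2 ratio was 0.73 in the hosts and 0.78 in the others.

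The peaks of ribosomal protein genes lay further into the gene than those of other genes. The highest summit lay a median of 287 and 275 bp downstream of the reference TSS in LP against 263 and 272 bp in HP, beside 166, 202, 193 and 183 bp at other genes. In the same order the medians were 243.5, 283.5, 286.5 and 198 bp for translation factors with TOP messenger RNAs, a list compared further on. For genes that control TOP translation they were 266, 283, 257 and 266 bp. Summits lay nearer the TSS for ribosome biogenesis factors (163, 202, 221 and 167 bp) and RNA polymerase I (164, 158, 161 and 174 bp). The same held for mitochondrial ribosomal proteins (151, 180.5, 153.5 and 164.5 bp). At the ribosomal protein genes the summit was downstream at 73, 69, 69 and 72 of the 77 genes, that is 94.8%, 89.6%, 89.6% and 93.5%, beside 74.0%, 77.6%, 77.9% and 75.9% of other genes. The reference TSS itself was inside a peak at 40 and 39 genes in LP (51.9% and 50.6%) and 45 and 69 in HP (58.4% and 89.6%). For all genes tested these shares were 64.4%, 68.7%, 68.1% and 87.5%. At 100 bp upstream of the TSS a peak covered 32.5% and 35.1% of the ribosomal protein genes in LP and 40.3% in HP replicate 1, less than at 400 bp upstream in 2 of these libraries (48.1% in both LP replicate 2 and HP replicate 1). At 400 bp downstream it covered 92.2%, 94.8% and 98.7%. In HP replicate 2 the dip upstream of the TSS was filled, with 84.4% covered at 100 bp and 74.0% at 400 bp upstream.

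**Figure D3:**
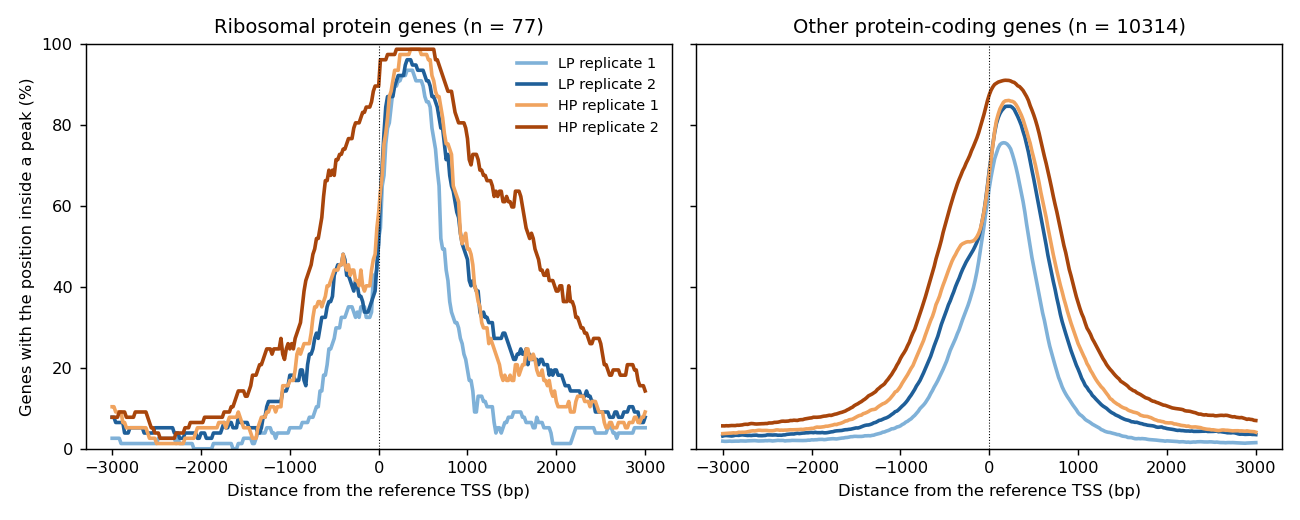
Share of genes, in percent, whose position at a given distance from the reference TSS lay inside a peak, in each of the 4 libraries, for 77 ribosomal protein genes (left) and 10314 other genes (right) called in all 4. The ribosomal protein genes show a plateau downstream of the TSS that reaches 93.5% to 98.7%, and in 3 libraries a lower shoulder upstream of it.

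The plateau also reached further into these short genes. At 1000 bp downstream a peak covered 19.5% and 46.8% of the ribosomal protein genes in LP and 49.4% and 76.6% in HP, where it covered 8.9%, 19.7%, 26.0% and 36.1% of other genes. Fragment length differs between the libraries (167 and 217 bp in LP, 184 and 192 bp in HP), and its part in these widths was not tested.

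The windows of ribosomal protein genes were also filled to a larger share. The median covered length was 1094 and 1725 bp in LP against 1655 and 2782 bp in HP, beside 810, 1235, 1384 and 1830 bp at other genes. As a share of the window it came to 14.1% and 22.0% in LP, then 22.9% and 36.5% in HP, against 6.38%, 10.1%, 11.4% and 15.6%. The windows differed in size, with a median of 7273 bp for ribosomal protein genes and 12084 bp for other genes, since genes with many distant TSSs have longer ones.

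**Figure D4:**
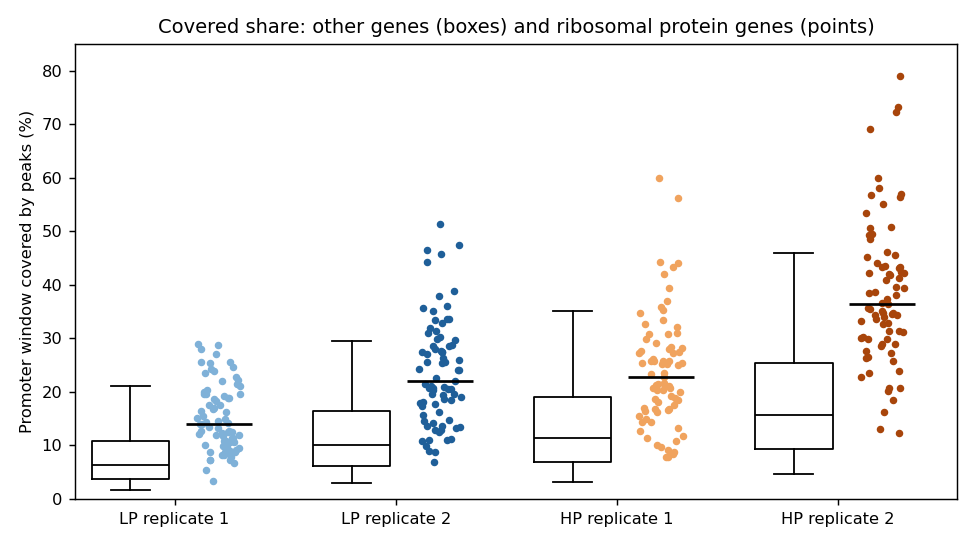
Share of the promoter window inside peaks, in percent, per library. Boxes give the median and quartiles of 10314 other genes with whiskers at the 5th and 95th percentile, and points are the 77 ribosomal protein genes with their median as a bar, which rises from 14.1% in LP replicate 1 to 36.5% in HP replicate 2.

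Rpl3, the large subunit protein next to the catalytic centre, had the longest covered stretch, 3610 and 5657 bp in LP against 6472 and 8676 bp in HP. Its highest summit lay upstream, between −8179 and −8065 bp from the reference TSS, in a window shared with Syngr1. Rps14, the small subunit gene deleted in a form of myelodysplastic syndrome, followed with 4079 and 5001 bp in LP against 4559 and 5985 bp in HP, and its window is shared with Ndst1. Rpl13a, which also acts in inflammatory translation control, had 2222 and 4230 bp in LP against 4629 and 6499 bp in HP, and it shares its window with Flt3l. The least covered windows were those of Rpl22l1 (896 and 481 bp in LP, 705 and 925 bp in HP), Rpl39 (342 and 549 bp, 523 and 1805 bp) and Rps29 (582 and 681 bp, 596 and 1581 bp). In all, 25 of the 77 windows held the TSS of another protein-coding gene, so a peak there can belong to either gene.

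Covered length was higher in HP at 75 of the 77 genes, with a median log2 ratio of 0.64, beside 0.67 at other genes. With limma 0 of the 77 passed the adjusted threshold, beside 0 of 10391 genes in either direction (0%). At an unadjusted p under 0.05, 6 of the 77 were higher and 14.9% of all genes were. With a replicate block 5 of the 77 passed, beside 9.19% of all genes. Without LP replicate 2, 9 of the 77 passed, beside 21.9% of all genes. Both HP libraries exceeded both LP libraries at 35 of the 77 genes (45.5%), where the share over all genes was 56.4%.

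The largest ratio of covered length was again at Rps9, with 257 and 1376 bp in LP against 1655 and 3285 bp in HP, a log2 ratio of 1.97 (SE 0.80, limma adjusted p = 0.325, or 0.0324 with the replicate block). Rpl24, which forms a bridge between the subunits, had 845 and 1068 bp in LP against 2498 and 3270 bp in HP, a log2 ratio of 1.59 (SE 0.45, limma adjusted p = 0.293, or 0.0335 with the block). Rps3 had 504 and 887 bp in LP against 1881 and 2079 bp in HP, a log2 ratio of 1.56 (limma adjusted p = 0.293, or 0.0384 with the block). Rpl36 and Rpl37a, both of the large subunit, had log2 ratios of 1.47 and 1.45 (limma adjusted p = 0.293 each, or 0.0396 and 0.0405 with the block). These 5 genes also passed without LP replicate 2, and in each of them both HP values were above both LP values. Rpl17, a large subunit gene, had 1497 and 1169 bp in LP against 908 and 1595 bp in HP, a log2 ratio of −0.14. Rpl5, which carries the 5S ribosomal RNA and binds Mdm2, had 1094 and 1514 bp in LP against 1103 and 1491 bp in HP, a log2 ratio of −0.01. Rpsa had 1185 and 2646 bp in LP against 1213 and 2991 bp in HP, a log2 ratio of 0.11. In these last 3 genes the replicates of a group differed more than the groups did.

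Other genes of the translation machinery were compared as lists. The list of ribosomal protein genes outside the symbol rule had 4 genes, all called in the 4 libraries, with a median log2 ratio of 0.99. Among them it was 0.91 at Fau, which is made as a fusion with a ubiquitin-like protein, 1.06 at the scaffold protein Rack1 and 1.07 at Rpl36al. Of 16 translation factors with TOP messenger RNAs, all were called in the 4 libraries and the median log2 ratio was 0.84, from 0.30 at the poly(A)-binding protein Pabpc1 to 1.10 at Eif3k. In replicate 1 their median was 0.03, lower than the 0.52 of other genes, as was that of the ribosomal protein genes. These factors were also high in level, at median percentiles of 73.5 and 72.7 in LP and 70.7 and 76.6 in HP. In groups 4 and 5 by level, the highest of the 5, the replicate 1 medians of other genes were 0.46 and 0.10. Of 14 genes that control translation of TOP messenger RNAs, 13 were called in all 4, with a median of 0.71, from 0.41 at the S6 kinase Rps6kb1 to 1.26 at Rps6kb2. In none of these 3 lists did a gene pass the limma adjusted threshold.

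Over both replicates, the genes that make ribosomes had larger median ratios than the genes of the ribosome itself, a difference that was not tested. The lists also differed in level, and ratios were smaller in the highest groups by level. Biogenesis factors stood at median percentiles of 48.6 and 38.7 in LP and 47.2 and 59.3 in HP. RNA polymerase I stood at 35.1 and 48.2 in LP and 59.7 and 54.5 in HP. The ribosomal protein genes stood at 67.8 and 76.9 in LP and 59.7 and 74.4 in HP. The part of level in the difference was not tested. Of 39 ribosome biogenesis factors 37 were called in all 4 libraries, with a median log2 ratio of 1.07, and 18 of them were higher with an unadjusted p under 0.05 (limma), where the share over all genes was 30.9%. Their ratios ran from 0.27 at Utp20 to 1.92 at Nle1, an assembly factor of the large subunit. Of 15 genes of RNA polymerase I and its factors 13 were called in all 4, with a median of 1.16, from 0.51 at Ubtf to 1.46 at the termination factor Ttf1. In replicate 1 the medians of these lists were 0.43 and 0.16, the latter below the 0.19 of the ribosomal protein genes. No gene of either list passed the adjusted threshold.

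Mitochondrial ribosomal proteins build the ribosome of another compartment. Of 78 genes 72 were called in all 4 libraries. Their median scaled pileups were 2.49 and 2.87 in LP against 4.09 and 8.38 in HP, lower than at the cytosolic genes in each library. Their median log2 ratio was 1.17, and 43 of 72 were higher with an unadjusted p under 0.05, where the share over all genes was 30.9%. The limma adjusted threshold was passed by 2, where that share was 0.77%. Mrpl22 had 0.52 and 1.24 in LP against 6.71 and 8.77 in HP, a log2 ratio of 3.25 (SE 0.55, limma adjusted p = 4.6e-05). Its 0.52 was the lowest value of the list in LP replicate 1, where the lowest of all genes tested was 0.44. The single spread behind this SE does not widen for a summit of few fragments. Mrps12 had 1.66 and 1.69 in LP against 4.44 and 12.3 in HP, a log2 ratio of 2.14 (SE 0.55, limma adjusted p = 0.0318). The lowest ratio of the list was 0.25, at Mrpl52. The difference between the cytosolic and the mitochondrial list was not tested.

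**Figure D5:**
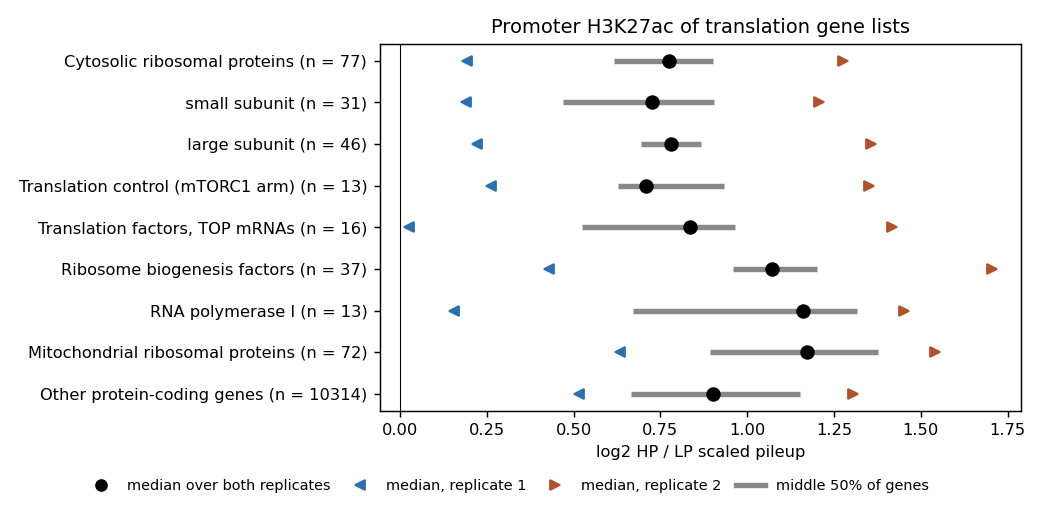
Log2 ratio of HP to LP scaled pileup for the gene lists. Circles are medians over both replicates, bars the middle 50% of genes and triangles the medians within replicate 1 and replicate 2. The median is 0.78 for cytosolic ribosomal protein genes, 1.17 for mitochondrial ones and 0.90 for other genes, and replicate 2 lies above replicate 1 in every list.

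Processed copies of ribosomal protein genes are common in the mouse genome and share sequence with their parents. Of 285 annotated ribosomal protein pseudogenes, 38 and 46 had a promoter peak in LP against 36 and 48 in HP (13.3%, 16.1%, 12.6% and 16.8%), and 11 had one in all 4 libraries. Where they had a peak its median scaled pileup was 0.83 and 0.72 in LP against 0.96 and 0.74 in HP. The paper's methods state default settings unless specified, alignment with Bowtie2, and no filter for reads with several matches. How reads shared between a gene and its copies were placed is not described beyond this. Its part in the values was not tested.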

How the data were processed

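H3K27ac ChIP-seq peak lists of 4 libraries (LP and HP, 2 replicates each) were used. Per the labels and the submitters' processing notes, the authors used bcl2fastq 2.20, Trimmomatic 0.33 and Bowtie2 2.5.1, with mm10 as the genome, and the file headers name MACS 3.0.0b1. Narrow peaks were called by the authors per library, with the IgG library that bears the same replicate number as control and a q-value cutoff of 0.05. The authors' deposited pileup is a signal, the unscaled number of fragments over a summit; the deposited fold enrichment is a ratio to local background, and the authors' −log10 q-values were used only to filter. The score column in the authors' lists restates the q-value and was not used. The labels give 1% formaldehyde and the paper's methods another concentration. Duplicate reads and paired fragments are not independent molecules, so a pileup of few fragments is imprecise.

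Pileups were divided by the total fragments and multiplied by 1000000. Genes and TSSs were those of GENCODE mouse release 21 on chromosomes 1 to 19, X and Y. Genes with a peak that overlapped the window by at least 1 bp in all 4 lists (10391) were compared on the log2 scale with limma 3.58.1 in R 4.3.3, two-sided, with no low-value filter beyond the call. The exact permutation test of 2 against 2 libraries cannot give a p below 0.333 and was not used. Replicate numbers pair the libraries, since per the labels DNA input was equal within a replicate set and each set had an IgG library with its number. The replicate differences in LP and HP correlated across all genes tested at 0.0450 for pileup and 0.139 for covered length. Across the 77 ribosomal protein genes the correlations were 0.247 and 0.224. Python 3.11.15, pandas 2.3.3, numpy 2.4.6 and matplotlib 3.10.9 were used, and the limma step was tested on simulated data.

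Members and gene lists were chosen with earlier results of these data known. Genes are named where they lacked a peak in a library, had the 6 highest or lowest log2 pileup ratios, the 5 highest or lowest mean pileups, the 3 extremes of covered length or its ratio, or a ratio below 1 in a replicate (at most 6), and for the stalk genes, Rpsa and the paralogs; genes with an unadjusted p under 0.05 beyond these were named after their values were seen. Of other lists the extremes and the genes past the threshold are named. A few genes that this rule names are not reported here.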

Additional observations from a re-analysis of the deposited data

How the results depend on the processing

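A peak in all 4 libraries was called for 77 ribosomal protein genes also with a window of 1 kb, with the 5′ end of the gene only, at q-values of at most 0.01 and 0.001 and with the summit inside the window; 52 of them had no other protein-coding TSS in the window. For scaled pileup, the number of all genes called higher was 80 in the analysis reported, 27 with the replicate block, 4 after centring, 15 with a mean-variance trend, 0 after quantile normalization, 25 when scaled by fragments times fragment length, 0 for the averaged summit pileups, 9 with a window of 1 kb, 37 with the 5′ end of the gene only, 49 and 7 at q-values of at most 0.01 and 0.001, 53 with the summit inside the window, and 114 among windows with no other protein-coding TSS. Leaving out 1 library gave between 0 and 5697 (5697 without HP replicate 1), and genes called lower ranged from 0 to 1. Ribosomal protein genes called higher were 1 (Rps9) among windows with no other protein-coding TSS and 0 to 47 when 1 library was left out. Their median log2 ratio was −0.20 after centring and −0.12 after quantile normalization. For covered length, the replicate block gave 955 genes higher and 2 lower, 5 of them ribosomal protein genes. Leaving out 1 library gave 0 to 2278 genes higher, 0 to 3 lower and 0 to 9 ribosomal protein genes; the median log2 ratio over the ribosomal protein genes was −0.0305 after centring, 0.50 with a window of 1 kb, 0.71 at both stricter q-values and 0.27 to 1.05 when 1 library or replicate was left out. The cause of these changes was not tested. Of the single genes with an unadjusted p under 0.05, no ratio changed its sign under any alternative. The replicate block changed no other call among the ribosomal protein genes. With 2 libraries a group, the standard error of a log2 pileup ratio (0.55) stood beside a median ratio of 0.78.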
